A study of Mus musculus with 4 samples.

Results

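STAT proteins are the transcription factors through which most cytokine receptors reach the genes of a T cell. The transcripts of 6 genes of this family (Stat2, Stat3, Stat4, Stat5a, Stat5b and Stat6) were taken by symbol from both tables of the series, and each of the 6 was found in both, among 23259 genes in all. RNA was sequenced in 2 separate mouse experiments with 4 libraries, 1 in each group. The first set regulatory T cells (Treg) of Balb/c Foxp3-hCD2 reporter mice that drank 3% dextran sulfate sodium (DSS) for 7 days against Treg of untreated mice of the same strain and genotype. In both groups these were spleen cells purified by the human CD2 reporter, which marks cells that express Foxp3. DSS in drinking water damages the lining of the colon. The second set CD4 T cells that carried a Sox12 vector, which encodes a SoxC transcription factor, against CD4 T cells that carried a mock vector. Both of those groups started from naive CD4 T cells, and the donor mice were wild-type C57BL6. The sources used here do not give the age and number of mice, pooling, or the days and cytokines of the CD4 T cell culture. With 1 library in each group no difference has a replicate check, no test was run, and the values of both libraries are given instead.

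A cytokine brings its receptor chains together, the bound JAK kinases phosphorylate the receptor tails, and STAT proteins dock there by their SH2 domain, are phosphorylated on a tyrosine, pair and enter the nucleus. STAT2 pairs with IRF9 downstream of type I interferon, STAT3 answers IL-6, IL-10, IL-21 and IL-27, STAT4 answers IL-12, STAT5A and STAT5B answer IL-2, IL-7 and IL-15, and STAT6 answers IL-4 and IL-13. In T cells STAT4 is known for Th1, STAT6 for Th2 and STAT3 for Th17 differentiation, while STAT5 downstream of IL-2 maintains Foxp3 and Treg. The measured quantity is the transcript level, which does not show phosphorylation.

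Stat5a and Stat5b are a recent gene pair, and their sequences are close enough that their values need care. By the principal transcripts of GENCODE vM21 their coding sequences are identical at 90.7% of aligned bases, the highest of the 15 pairs among the 6 genes, whereas the next pair (Stat5a and Stat6) reaches 65.5% and the lowest 58.2%. Of all windows of 50 coding bases in Stat5a, 26.1% also occur in Stat5b, against 0% between any other pair. The longest run that both share is 324 bases, of which the first 120 (coding bases 571 to 690 in both genes, chromosome 11) are shown because a read from here fits either gene, and the last 60 coding bases of each are shown because they tell the genes apart.
Shared by Stat5a and Stat5b: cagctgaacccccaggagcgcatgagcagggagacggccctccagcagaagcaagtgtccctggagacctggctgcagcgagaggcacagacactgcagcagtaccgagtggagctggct
Stat5a, 3′ end of the coding sequence: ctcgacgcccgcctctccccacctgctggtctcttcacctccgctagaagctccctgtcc
Stat5b, 3′ end of the coding sequence: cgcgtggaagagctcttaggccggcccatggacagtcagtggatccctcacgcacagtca
How the authors' quantification divided shared reads is not stated in these sources, so the single values of Stat5a and Stat5b are uncertain and their sum is given as well.

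Promoter windows from RefSeq (GRCm38.p6, 250 bases before to 50 after the start of a transcript) were matched for 6 of the 6 genes and searched on both strands for the interferon response element (GAAA, any 2 bases, GAAA), the STAT element (TTC, any 3 bases, GAA), its STAT6 form (TTC, any 4 bases, GAA) and the SOX core AACAAAG. These letters occur in 3.44%, 8.30%, 6.95% and 5.85% of all 32851 windows, in the order named. Among the 6 genes the interferon response element was found in Stat2 and in 1 of the 2 windows of Stat4, the STAT6 form in Stat2 and the SOX core in that same Stat4 window. None of the windows of Stat3, Stat5a, Stat5b or Stat6 held any of the 4 motifs. Of the 6, Stat2 had the lowest change in the DSS comparison below and Stat4 in the Sox12 vector comparison, so their windows with a match are shown. Those of Isg15, Socs3 and Cish are shown as targets described below, and all matches are in capitals. A match is a run of letters and not a measured binding site.
Stat2, chr10:128270248-128270547 (GRCm38.p6, plus strand): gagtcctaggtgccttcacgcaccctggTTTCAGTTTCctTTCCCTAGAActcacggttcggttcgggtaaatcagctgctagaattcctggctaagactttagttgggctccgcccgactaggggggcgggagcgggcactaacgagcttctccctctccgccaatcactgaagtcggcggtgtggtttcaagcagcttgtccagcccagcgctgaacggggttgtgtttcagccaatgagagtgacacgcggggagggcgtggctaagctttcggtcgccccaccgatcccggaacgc
Stat4, second window, chr1:52007990-52008289 (GRCm38.p6, plus strand): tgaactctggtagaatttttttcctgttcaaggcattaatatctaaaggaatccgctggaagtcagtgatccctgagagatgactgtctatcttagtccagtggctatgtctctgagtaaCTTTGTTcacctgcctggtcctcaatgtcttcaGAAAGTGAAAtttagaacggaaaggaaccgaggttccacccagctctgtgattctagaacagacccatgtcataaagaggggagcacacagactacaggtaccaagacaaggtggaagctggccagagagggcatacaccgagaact
Isg15, chr4:156200769-156201068 (GRCm38.p6, minus strand): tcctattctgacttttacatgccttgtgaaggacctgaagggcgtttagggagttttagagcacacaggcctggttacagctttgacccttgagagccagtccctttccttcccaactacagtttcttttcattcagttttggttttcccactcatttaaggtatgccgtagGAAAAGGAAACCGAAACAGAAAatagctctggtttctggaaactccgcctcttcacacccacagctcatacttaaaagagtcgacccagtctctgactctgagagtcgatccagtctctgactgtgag
Socs3, chr11:117969317-117969616 (GRCm38.p6, minus strand): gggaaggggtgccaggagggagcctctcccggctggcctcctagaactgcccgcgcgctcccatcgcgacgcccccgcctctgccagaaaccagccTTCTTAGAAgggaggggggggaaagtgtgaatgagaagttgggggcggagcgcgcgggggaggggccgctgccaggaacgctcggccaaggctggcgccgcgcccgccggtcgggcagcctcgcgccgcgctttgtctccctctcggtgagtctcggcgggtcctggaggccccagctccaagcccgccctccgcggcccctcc
Cish, chr9:107296409-107296708 (GRCm38.p6, plus strand): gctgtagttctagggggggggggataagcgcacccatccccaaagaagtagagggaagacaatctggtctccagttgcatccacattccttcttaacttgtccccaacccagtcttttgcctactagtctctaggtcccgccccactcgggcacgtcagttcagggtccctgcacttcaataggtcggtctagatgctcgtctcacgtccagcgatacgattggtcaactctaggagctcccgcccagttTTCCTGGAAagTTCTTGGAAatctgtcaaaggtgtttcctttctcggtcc
The interferon response element starts 222 bases before the start in Stat2 and 97 before it in Stat4, and 3 overlapping copies start 78, 72 and 66 bases before the start of Isg15. The remaining capitals of Stat2 are the STAT6 form and those of Stat4 the SOX core on the opposite strand. The capitals of Socs3 and Cish are the STAT element, 1 copy 154 bases before the start of Socs3 and 2 copies in Cish, at its start and 11 bases after it.

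Levels were deposited as FPKM, fragments per length of transcript and sequencing depth, which allows genes to be compared within a library. The vector table was deposited as log2(FPKM + 1) and was turned back to FPKM. The 2 tables were made separately, so a level in Treg and a level in CD4 T cells are not on 1 scale. A change below is log2(FPKM + 1) in the DSS or Sox12 library minus the same in its untreated or mock library. On this scale low genes move less than their ratio. A change of 1 or more in either direction, about 2-fold, is past the size rule. Genes whose mean over both libraries reached 1 FPKM entered the counts, 10545 in the DSS experiment and 10822 in the vector experiment, and 6 of the 6 STAT genes did so in each. In the vector experiment the low values gave an estimate of 44.8 fragments behind each FPKM and kb with the Sox12 vector and 42.9 with the mock vector, and the depth of the Treg libraries is unknown. Sox12 itself had 829 FPKM with the Sox12 vector and 1.56 FPKM with the mock vector, as the labels say. Foxp3 had 84.9 and 88.2 FPKM in DSS and untreated Treg, and Cd4 185 and 261 FPKM with the Sox12 and mock vectors, so the labelled cell types carried their defining markers.

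Of the 6 genes Stat2 had the lowest level in each of the 4 libraries, and the gene at the top differed between Treg and CD4 T cells. In Treg the order from high to low was Stat5b, Stat6, Stat3, Stat5a, Stat4 and Stat2 in both libraries, with 77.6, 69.2, 60.6, 41.04, 41.04 and 18.8 FPKM in DSS Treg. In untreated Treg the same genes had 72.3, 68.4, 56.9, 41.3, 38.8 and 24.9 FPKM. Stat5a and Stat4 were thus level in DSS Treg, and Stat5b and Stat6 were within a ratio of 1.12 in DSS Treg and 1.06 in untreated Treg. With the Sox12 vector the order was Stat3 (75.4 FPKM), Stat6 (58.9), Stat5a (56.5), Stat5b (38.8), Stat4 (34.9) and Stat2 (10.8). With the mock vector it was Stat6 (78.6 FPKM), Stat3 (69.7), Stat5a (66.2), Stat4 (57.9), Stat5b (44.3) and Stat2 (16.2). Stat3 and Stat6 exchanged the first place, and Stat4 stood below Stat5b with the Sox12 vector and above it with the mock vector. No spread between samples exists by which neighbours in these orders could be told apart. The plot of levels shows these values.

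**Figure D1:**
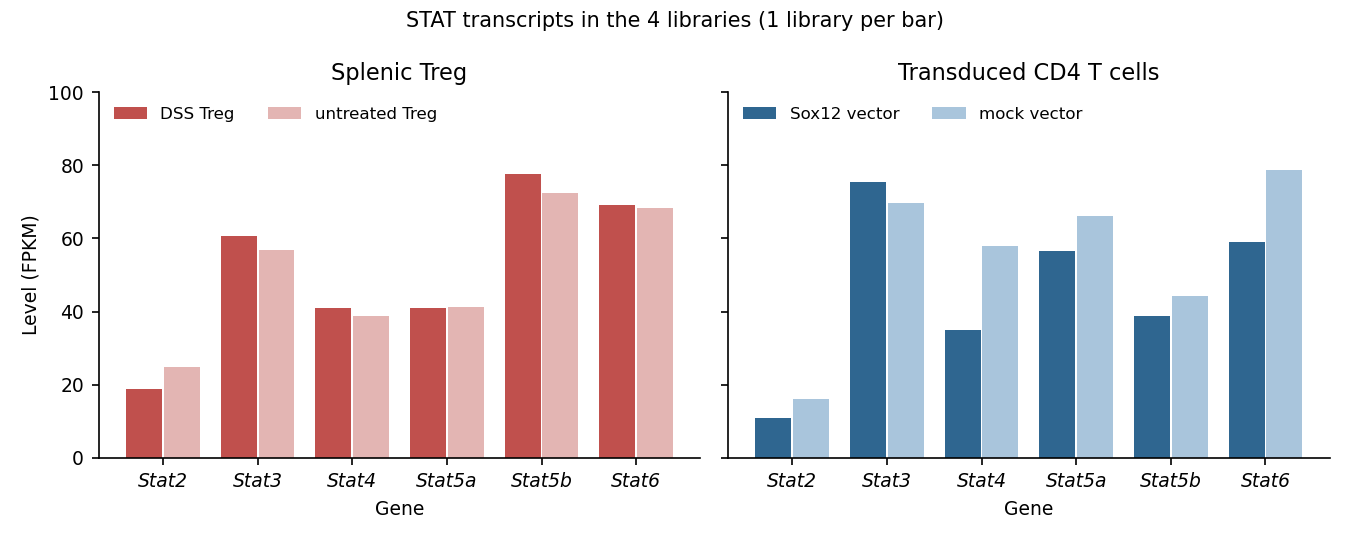
Levels in FPKM of the 6 STAT genes (horizontal axis), with 1 bar per library and no error bars since each group has 1 library; left, DSS Treg and untreated Treg, right, Sox12 and mock vector. Stat2 is the lowest in every library, and Stat4 with the Sox12 vector (34.9 FPKM) stands well below Stat4 with the mock vector (57.9 FPKM).

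In DSS Treg Stat2, the partner of IRF9 in the interferon response, was lower than in untreated Treg, and the other 5 genes were close to level. Stat2 had 18.8 FPKM in DSS Treg and 24.9 FPKM in untreated Treg, a ratio of 0.752 and a change of -0.39. Only 1.19% of all genes had a lower change. Stat5b, with 77.6 and 72.3 FPKM in DSS and untreated Treg, had a change of 0.10, and Stat3, with 60.6 and 56.9 FPKM, one of 0.09. These and Stat4 (change 0.08) lay beside the middle of all genes, which was itself at 0.05, since 66.1% of all genes were higher in DSS Treg. Stat5a had a change of -0.01. Stat6 had one of 0.02, which was negative under each of the 3 other scalings tried. Past the size rule were 0 of the 6 genes, where 0.266% of all genes were (0.190% higher and 0.0759% lower, as shares of all genes).
Markers of several other blood cells were higher in the same DSS library: 10 of 10 erythroid markers, summing to 682 FPKM in DSS Treg and 444 FPKM in untreated Treg, and, of those that passed the filter, 3 of 3 basophil and mast cell markers and 4 of 4 neutrophil and myeloid precursor markers. The whole basophil list summed to 28.5 and 7.49 FPKM and the whole myeloid list to 35.0 and 22.04 FPKM in DSS and untreated Treg, with none at 0. Below the filter, the myeloid markers S100a8 (0.678 and 1.08 FPKM in DSS and untreated Treg) and S100a9 (0.449 and 1.19 FPKM) were lower in DSS Treg. The basophil markers Ms4a2 (1.07 and 0.377 FPKM) and Fcer1a (1.36 and 0.329 FPKM) were higher. Each of these was above 1 FPKM in its higher library alone, so its direction was bound to that entry. Markers of plasma cells (291.7 and 341 FPKM, 3 of 4 lower), NK and CD8 T cells (21.4 and 24.7 FPKM, 2 of 2 lower) and macrophages (13.3 and 14.5 FPKM, 1 of 2 lower) summed to less in DSS Treg than in untreated Treg. The 6 T cell markers summed to 1856 and 1883 FPKM in DSS and untreated Treg. The part of these cells in the STAT values was not tested, and in bulk RNA fewer cells of a type and less RNA per cell cannot be told apart.

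With the Sox12 vector 5 of the 6 genes were lower than with the mock vector and Stat3 was higher, under each scaling tried. Stat4, the IL-12 factor, differed most, with 34.9 FPKM with the Sox12 vector and 57.9 FPKM with the mock vector, a ratio of 0.603 and a change of -0.71. Stat2 followed with 10.8 and 16.2 FPKM with the Sox12 and mock vectors (ratio 0.667, change -0.54), and Stat6, the IL-4 factor, with 58.9 and 78.6 FPKM (ratio 0.749, change -0.41). Of all genes 4.46% had a lower change than Stat4, 7.84% a lower one than Stat2 and 12.3% a lower one than Stat6. The STAT5 pair was lower by less. Stat5a had 56.5 FPKM with the Sox12 vector and 66.2 FPKM with the mock vector (change -0.23), Stat5b had 38.8 and 44.3 FPKM (change -0.19), and their sum was 95.3 and 110 FPKM. Stat3 had 75.4 and 69.7 FPKM with the Sox12 and mock vectors, a change of 0.11. Past the size rule were 0 of the 6, where 6.76% of all genes were. Of all genes 48.9% were higher and 51.1% lower with the Sox12 vector, the base for counts of direction in this experiment.
If a transcript is taken as 2 kb long, shorter than the principal transcript of each of the 6, Stat4 rested on about 3129 fragments with the Sox12 vector and 4965 with the mock vector, a counting error of 1.79% and 1.42%. The largest counting error of the 6 was that of Stat2, 3.21% with the Sox12 vector and 2.68% with the mock vector. Counting error covers neither library preparation nor the animals. In these libraries 6 of 6 T cell markers were lower with the Sox12 vector, summing to 1039 and 1326 FPKM with the Sox12 and mock vectors. In contrast 6 of 6 NK and CD8 T cell markers were higher (256 and 93.8 FPKM), and none of either list was at 0. Of the higher ones Cd8a (5.58 and 0.580 FPKM) and Klrb1c (3.87 and 0.923 FPKM) reached the filter through the Sox12 library alone, so their direction was bound to the filter. The part of these cells in the STAT values was not tested. Basophil, myeloid and macrophage markers each summed to less than 1 FPKM in both libraries, and B cell markers to 2.63 and 2.03 FPKM with the Sox12 and mock vectors. Erythroid markers summed to 16.0 and 50.02 FPKM, mostly Hbb-b1 (9.27 and 46.6 FPKM), while Hba-a1 was higher with the Sox12 vector (4.23 and 1.74 FPKM). Plasma cell markers summed to 86.2 and 147 FPKM, mostly Xbp1 (81.2 and 145 FPKM). Of the other plasma cell markers, Prdm1 (2.95 and 1.02 FPKM) and Sdc1 (1.75 and 0.866 FPKM) were higher with the Sox12 vector. Sdc1 reached the filter through the Sox12 library alone.

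**Figure D2:**
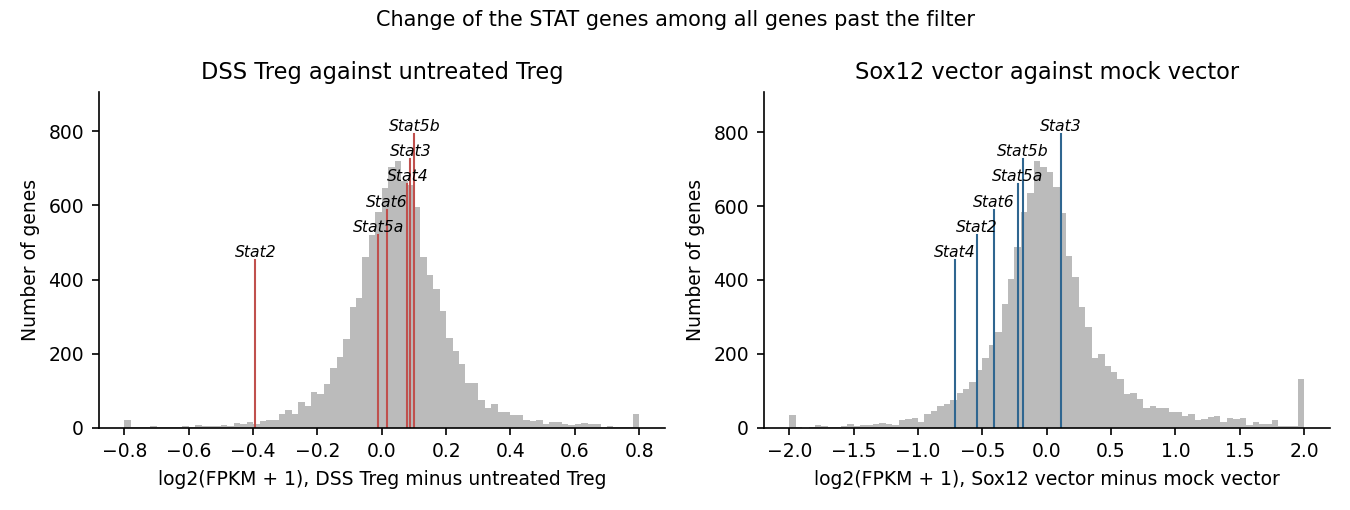
Change of each STAT gene (coloured lines, height only for legibility) on the histogram of all genes past the filter, as the difference of log2(FPKM + 1), for DSS against untreated Treg (left) and Sox12 against mock vector (right); the horizontal axes differ, and the end bars hold all genes beyond them. Stat2 at -0.39 stands apart from the other 5 on the left, and on the right Stat3 at 0.11 is the one gene above 0.

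As parts of a pool, Stat3 took a larger share with the Sox12 vector and Stat4 and Stat6 smaller ones. Stat2 took a smaller share with DSS and with the Sox12 vector. The 6 summed to 308 FPKM in DSS Treg and 303 FPKM in untreated Treg, and to 275 FPKM with the Sox12 vector and 333 FPKM with the mock vector. Shares of this sum and ratios of 2 genes in 1 library do not depend on how the libraries are scaled to each other. Stat3 made up 27.4% of the sum with the Sox12 vector and 20.9% with the mock vector, while Stat4 made up 12.7% and 17.4%. In the same libraries Stat6 made up 21.4% and 23.6%, and Stat2 3.93% and 4.87%. In Treg the share of Stat2 was 6.08% with DSS and 8.24% without, and the next largest difference was that of Stat5b, 1.29 percentage points.
The ratio of Stat4 to Stat6, the Th1 and Th2 factors, was 0.593 with the Sox12 vector and 0.737 with the mock vector. The same ratio was 0.593 in DSS Treg and 0.567 in untreated Treg. Stat3 relative to the sum of Stat5a and Stat5b, 2 factors known to compete at shared sites, was 0.791 with the Sox12 vector and 0.631 with the mock vector, and 0.511 and 0.501 in DSS and untreated Treg. Stat2 relative to Stat3 was lower with DSS and with the Sox12 vector, at 0.310 and 0.438 in DSS and untreated Treg and at 0.143 and 0.233 with the Sox12 and mock vectors. Stat5a relative to Stat5b was below 1 in Treg (0.529 with DSS, 0.572 untreated) and above 1 in CD4 T cells (1.46 with the Sox12 vector, 1.495 with the mock vector). Tables, strains and culture differ between those cells, and the split of shared reads adds to the uncertainty.

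**Figure D3:**
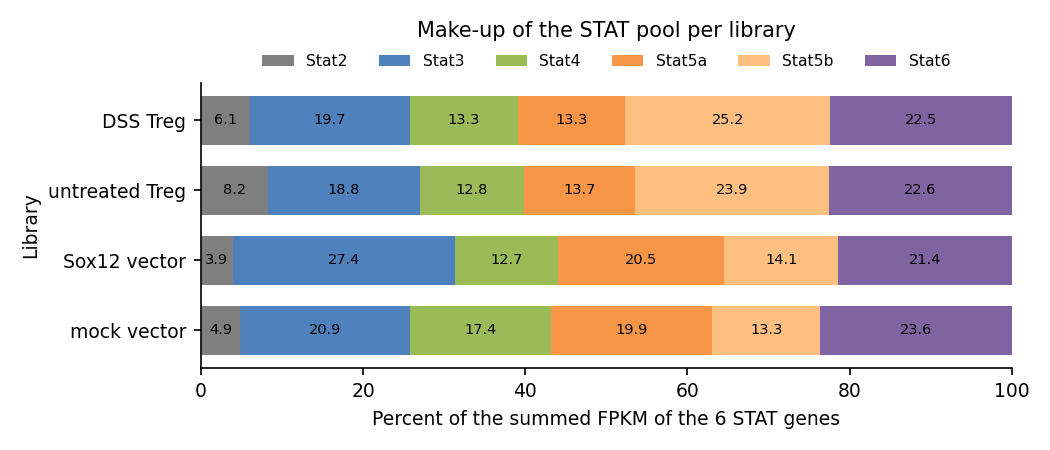
Share of each STAT gene in the summed FPKM of the 6, in percent, with 1 bar per library. The Stat3 part is widest with the Sox12 vector (27.4%), and the Stat5b part is wider in both Treg libraries than in both CD4 T cell libraries.

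In the STAT2 pathway the STAT gene and most of its listed targets were lower in both experiments. The genes of the type I interferon receptor, Ifnar1 and Ifnar2, were not lower: Ifnar1 had 26.9 and 26.7 FPKM in DSS and untreated Treg and 22.8 and 18.9 FPKM with the Sox12 and mock vectors, and Ifnar2 had 38.3 and 33.6 FPKM in DSS and untreated Treg and 28.7 and 26.0 FPKM with the Sox12 and mock vectors. Il10rb, a chain of the type III interferon receptor, had 28.3 and 25.5 FPKM in DSS and untreated Treg but 19.8 and 26.8 FPKM with the Sox12 and mock vectors (change -0.42). Irf9, the DNA-binding partner of STAT2 and itself on the target list, had 44.2 FPKM in DSS Treg and 55.4 FPKM in untreated Treg, but 20.5 and 21.2 FPKM with the Sox12 and mock vectors. Of the 17 listed interferon-stimulated genes 15 passed the filter in Treg and 15 of 15 were lower with DSS, with a median change of -0.76 beside 0.05 for all genes. Of these Ifi44 (0.802 and 3.08 FPKM in DSS and untreated Treg) and Oas2 (1.08 and 3.70 FPKM) were past the size rule, where 0.0759% of all genes were in that direction. Both are low genes: Ifi44 is above 1 FPKM in untreated Treg alone, through which it entered the table, so its direction was bound to that entry. Neither passed the size rule with a pseudocount of 5 or a mean of 5 FPKM or more, and the list's median was -0.51 with a pseudocount of 5.
With the Sox12 vector 11 of the 14 that passed were lower and 3 higher, with a median change of -1.004 beside -0.01 for all genes. That median was -0.44 with a pseudocount of 5 and -1.30 with a pseudocount of 0.1. Past the size rule were 7, all lower, where 1.91% of all genes were. The 4 with the lowest change were Oas3, a synthetase that activates RNase L (2.52 and 20.2 FPKM with the Sox12 and mock vectors), Irf7, a factor that amplifies type I interferon (3.73 and 17.6 FPKM), the ubiquitin-like Isg15 (4.77 and 18.6 FPKM) and Oas1a (0.245 and 2.73 FPKM). Oas1a reached the filter through the mock library alone, so its direction was bound to the filter. The 3 that were higher were Usp18, an inhibitor of the interferon receptor (13.6 and 7.55 FPKM), Ifit2 (14.4 and 10.6 FPKM) and Rtp4 (9.25 and 8.68 FPKM). Of the 13 listed genes with a promoter window, 7 held the interferon response element in at least 1 window, beside 3.44% of all single windows. The list is made of known interferon targets. Of the other target lists, the STAT element was in 2 of 11 STAT3, 3 of 8 STAT4 and 3 of 12 STAT5 targets with a window, beside 8.30% of all windows. The STAT6 form was in 1 of 10 STAT6 targets, beside 6.95%.

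In the STAT4 pathway the STAT gene was lower with the Sox12 vector while its receptor chains and several of its known targets were higher. The IL-12 receptor chains had 34.0 and 26.7 FPKM (Il12rb1) and 23.1 and 18.8 FPKM (Il12rb2) with the Sox12 and mock vectors, and Il23r stayed below 1 FPKM in both. Of the 8 listed targets that passed the filter 6 were higher and 2 lower, with a median change of 0.50. Il12rb2 is on both lists and is among the higher targets. Past the size rule were 3, all higher, where 4.85% of all genes were. Among them were interferon-gamma, Ifng (191 and 41.3 FPKM with the Sox12 and mock vectors), and its transcription factor Tbx21 (16.2 and 5.07 FPKM). NK and CD8 T cells express both, and the markers of those cells were higher in the same library, as given above. The part of those cells in the Ifng and Tbx21 values was not tested. Il18r1, the IL-18 receptor chain, had 28.1 and 29.3 FPKM with the Sox12 and mock vectors, and 31.8 and 31.7 FPKM in DSS and untreated Treg. In Treg 5 of 7 targets were higher and 3 lay above the median of all genes. Their median change was 0.04, which was negative when the median of all genes was set to 0, and Il12rb1 had 7.49 and 9.15 FPKM in DSS and untreated Treg.

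In the STAT3 pathway 4 of 6 receptor chains were lower in DSS Treg and 5 of 6 with the Sox12 vector, none past the size rule, while the targets were mostly higher in DSS Treg and split in CD4 T cells. The IL-27 receptor Il27ra had 127 and 137 FPKM and the IL-6 receptor Il6ra 59.3 and 63.9 FPKM in DSS and untreated Treg. With the Sox12 vector the lower chains included the IL-21 receptor Il21r (63.8 and 85.8 FPKM with the Sox12 and mock vectors), and the shared signalling chain gp130 (Il6st) was higher at 7.16 and 3.65 FPKM. Of the listed targets 9 of 10 were higher in DSS Treg, with a median change of 0.22 beside 0.05 for all genes and 0 past the size rule. With 66.1% of all genes higher there, 8 of the 10 lay above the median of all genes. The most abundant were Hif1a, below that median (56.4 and 54.9 FPKM in DSS and untreated Treg), and Batf (45.1 and 42.1 FPKM).
In CD4 T cells 5 targets were higher and 6 lower. Of the higher ones Il10 (2.23 and 0.786 FPKM with the Sox12 and mock vectors) reached the filter through the Sox12 library alone, so its direction was bound to the filter. Socs3, the feedback inhibitor of gp130, had 23.9 FPKM with the Sox12 vector and 7.72 FPKM with the mock vector, a change of 1.51. The chemokine receptor Ccr6 (5.48 and 14.8 FPKM) and the transcription factor Irf4 (45.3 and 96.7 FPKM) were past the size rule in the lower direction, 2 of 11 targets where 1.91% of all genes were, and Socs3 was the 1 target past it in the higher direction, where 4.85% were. Socs3 was also higher in DSS Treg, at 37.5 and 29.1 FPKM in DSS and untreated Treg.

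In the STAT5 pathway the 3 IL-2 receptor chains and 13 of 17 targets were lower in DSS Treg, where the sum of Stat5a and Stat5b was 119 FPKM with DSS and 114 FPKM without. The chain Il2ra had 67.2 and 82.0 FPKM, Il2rb 211 and 237 FPKM and the common gamma chain Il2rg 289 and 339 FPKM in DSS and untreated Treg, whereas the IL-7 receptor Il7r was higher at 116 and 87.0 FPKM. Of 17 targets 13 were lower and 4 higher (median change -0.12), 15 of the 17 lay below the median of all genes, and 0 were past the size rule. Il2ra and Il2rb are on the target list too and are among the lower targets. Cish, a feedback inhibitor that STAT5 induces, had 56.1 FPKM in DSS Treg and 68.1 FPKM in untreated Treg.
With the Sox12 vector Stat5a and Stat5b were lower while 12 of the 17 targets were higher and 5 lower, with a median change of 0.26. The 3 past the size rule were all higher, where 4.85% of all genes were: Foxp3 (127 and 20.9 FPKM with the Sox12 and mock vectors), perforin, Prf1 (135 and 30.3 FPKM), and the granzyme Gzmb (2735 and 708 FPKM). The last 2 are also genes of NK and CD8 T cells, whose part in these values was not tested. Cish, with its 2 STAT elements, had 173 and 180 FPKM. Of the IL-2 receptor chains Il2rb was higher, at 352 and 243 FPKM with the Sox12 and mock vectors. The other chains, Il2ra (568 and 629 FPKM) and Il2rg (376 and 405 FPKM), were lower. Of the 6 listed receptor chains 2 were higher and 4 lower, with the largest change in Il9r (1.43 and 3.75 FPKM, change -0.96). Il2, the cytokine itself, had 8.40 FPKM with the Sox12 vector and 35.1 FPKM with the mock vector (change -1.94). Of the 18 listed cytokine genes 9 passed the filter there, 5 higher and 4 lower, and the IL-23 subunit Il23a was higher at 2.503 and 0.712 FPKM with the Sox12 and mock vectors. Among the higher ones Il23a and Il10 reached the filter through the Sox12 library alone, so their direction was bound to the filter.

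In the STAT6 pathway the STAT gene and 7 of 10 targets were lower with the Sox12 vector, where 51.1% of all genes were lower. Il4ra, the receptor chain that binds STAT6, was close to level at 61.4 and 63.4 FPKM with the Sox12 and mock vectors. The median change of the targets was -0.18, and -0.068 with no filter on low values. The 2 past the size rule were both lower, where 1.91% of all genes were: the chemokine receptor Ccr4 (38.8 and 94.1 FPKM) and the cytokine Il5 (7.62 and 17.9 FPKM). The 3 that were higher were Gata3, the Th2 transcription factor (34.2 and 23.0 FPKM), Il24 (22.8 and 21.6 FPKM) and the IL-33 receptor Il1rl1 (1.79 and 0.432 FPKM). Il1rl1 reached the filter through the Sox12 library alone, so its direction was bound to the filter. In Treg 8 of 8 targets were higher with DSS, with a median change of 0.15 beside 0.05 for all genes and 0 past the size rule. There 7 of the 8 lay above the median of all genes, Il4ra below it (54.3 and 53.3 FPKM in DSS and untreated Treg), and Gata3 had 40.7 and 38.8 FPKM in DSS and untreated Treg. Il4, 1 of the 8, was above 1 FPKM in DSS Treg alone (1.30 and 0.946 FPKM in DSS and untreated Treg). It entered the table through that library, so its direction was bound to that entry.

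Of the kinases and inhibitors shared by these pathways, 4 of 4 JAK genes were lower and 6 of 8 SOCS genes higher with the Sox12 vector. Of all genes 51.1% were lower and 48.9% higher there. Jak3, the kinase of the common gamma chain, had 54.2 FPKM with the Sox12 vector and 82.0 FPKM with the mock vector (change -0.59), and Jak2, a kinase of the IL-12 receptor, had 50.5 and 65.6 FPKM (change -0.37). Tyk2, its partner there and also a kinase of the interferon receptor, had 16.0 and 18.9 FPKM, and Jak1 74.998 and 77.7 FPKM. Past the size rule were 0 JAK genes and, of the SOCS genes, Socs3. Socs2, a STAT5 target, had 161 and 101 FPKM with the Sox12 and mock vectors. The SOCS list had a median change of 0.44 with the Sox12 vector, 0.26 with a pseudocount of 5 and 0.59 with a mean of 5 FPKM or more. In DSS Treg 2 JAK genes were higher and 2 lower (median 0.03, negative under 2 of the 3 other scalings), with Jak1 at 173 and 164 FPKM and Jak3 at 95.6 and 96.5 FPKM in DSS and untreated Treg, and 5 of 8 SOCS genes were higher, a share near that of all genes (66.1%), with 4 above the median of all genes. The PIAS inhibitors had medians of 0.12 in Treg and -0.02 in CD4 T cells, and the phosphatases and adaptors -0.07 and 0.01. Both CD4 T cell medians changed sign under another scaling. The most abundant of these, the phosphatase CD45 (Ptprc), had 296 and 330 FPKM in DSS and untreated Treg and 229.8 and 227 FPKM with the Sox12 and mock vectors.

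**Figure D4:**
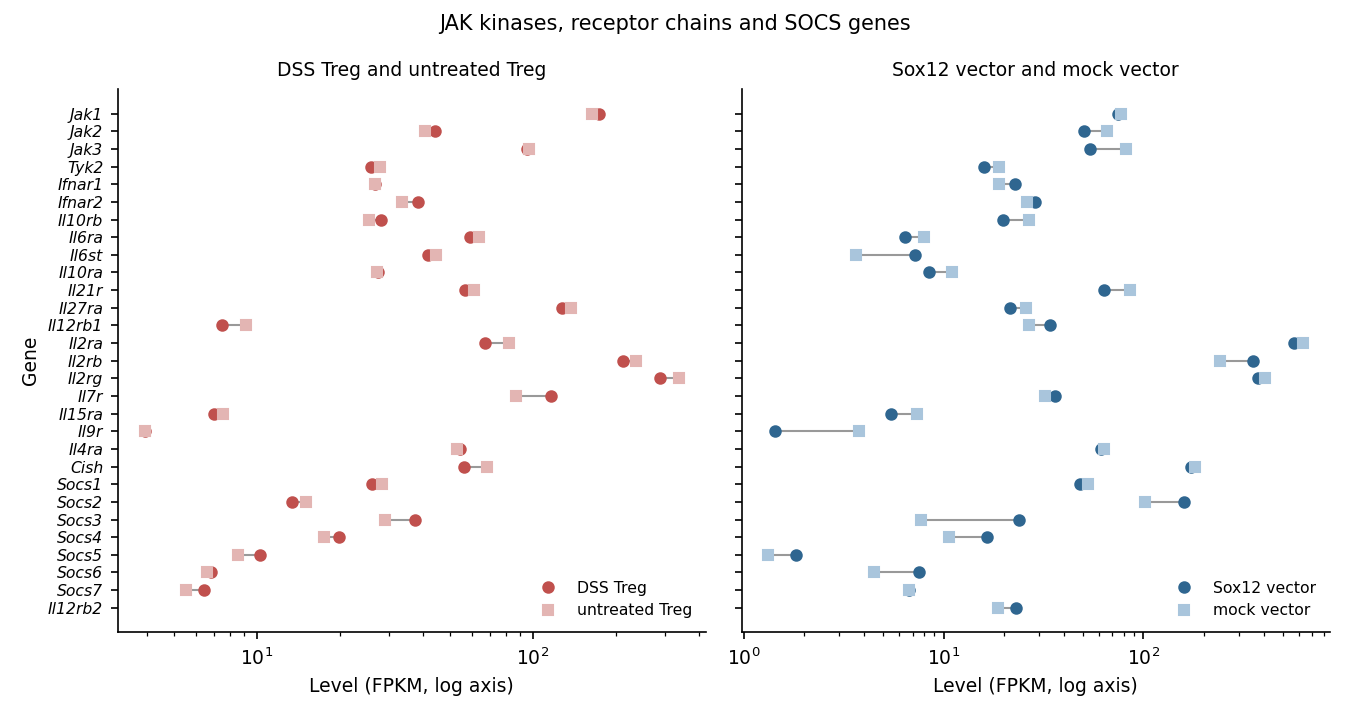
Levels in FPKM (log axis) of the JAK kinases, the receptor chains and the SOCS genes that passed the filter, with 1 symbol per library (circles, DSS Treg or Sox12 vector; squares, untreated Treg or mock vector). Socs3 has the widest gap, 23.9 FPKM with the Sox12 vector and 7.72 FPKM with the mock vector, and the 4 JAK symbols of the Sox12 vector lie left of those of the mock vector.

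**Figure D5:**
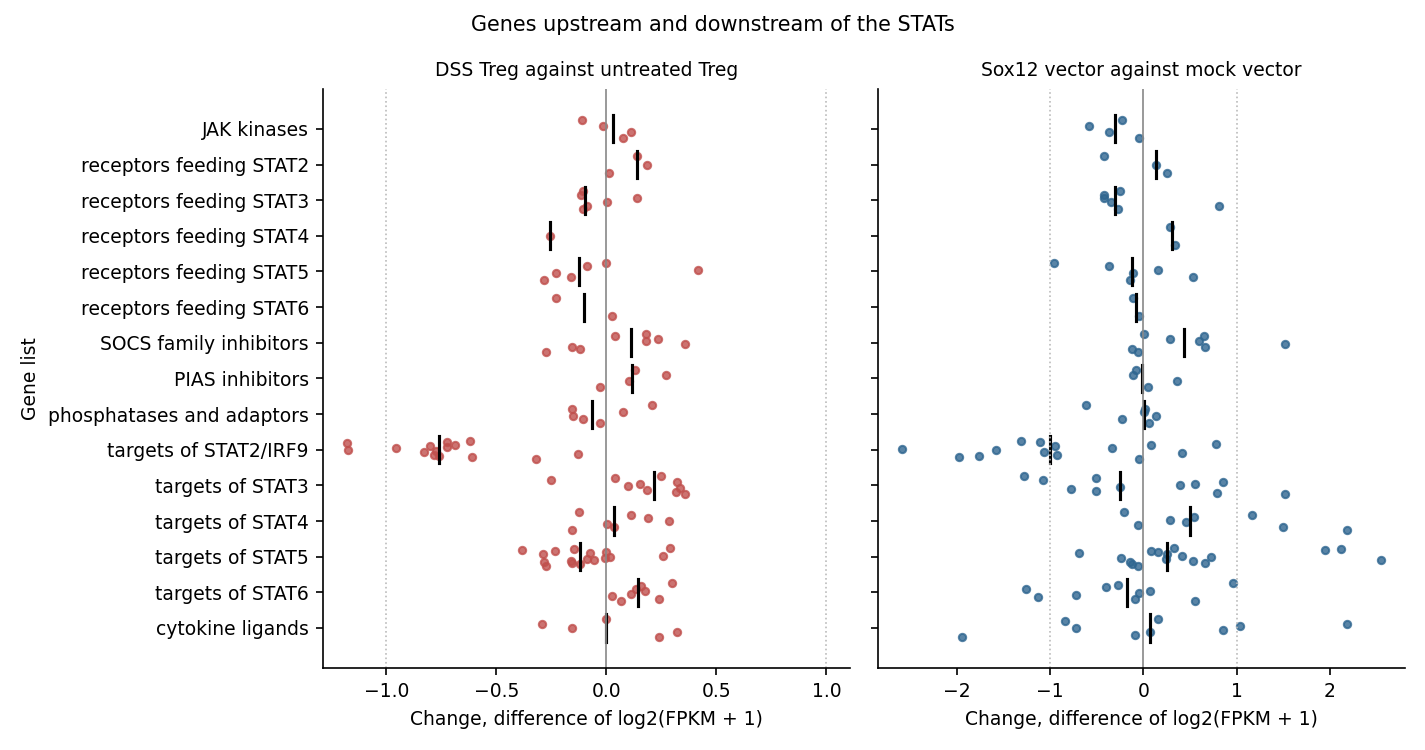
Change of each listed gene past the filter (points) and the median of its list (black bars), as the difference of log2(FPKM + 1), for DSS against untreated Treg (left) and Sox12 against mock vector (right); dotted lines mark a change of 1 in size and the horizontal axes differ. The targets of STAT2 with IRF9 lie at a median of -0.76 on the left and -1.004 on the right.

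Over the 4 libraries the levels most like those of Stat4, the STAT gene with the largest change in the vector experiment, were those of B4galt1, Herpud1 and Hk1, at distances of 0.25, 0.28 and 0.30 on the log2(FPKM + 1) scale among 9721 genes of both tables. B4galt1, a galactosyltransferase, had 35.3 and 49.7 FPKM with the Sox12 and mock vectors and 43.0 and 41.6 FPKM in DSS and untreated Treg. Hk1, a hexokinase, had 35.4 and 65.0 FPKM with the Sox12 and mock vectors. With 4 libraries many genes lie near any given one, and this order is a description.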

How the data were processed

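The authors deposited FPKM per gene for the Treg libraries with their ratio of DSS to untreated, and log2(FPKM + 1) per gene for the vector libraries with their log2 difference. Cufflinks and mm9 are the tool and build in the submitters' processing notes. Libraries came from total RNA with a strand-specific SureSelect kit, per the labels' protocols, and the sources used here do not name the aligner, the annotation or the use of strand. The deposited DSS table lists genes above 1 FPKM in at least 1 library. Recomputed from the value columns, the authors' ratio was matched within a relative 0.000448 and their log2 difference within 5e-10.

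Rows whose symbol a spreadsheet had turned into a date were left out (16 and 25 rows). Changes were computed with Python 3.11.15 and pandas 2.3.3 with a pseudocount of 1, and 0 tests were run, since each group has 1 library. The steps were tested on simulated data. Depth in the vector table came from genes below 0.1 FPKM with a single transcript in GENCODE vM21, as the commonest reciprocal of FPKM times length, searched between 20 and 80 (23 of 275 genes with the Sox12 vector and 21 of 231 with the mock vector), so it rests on few genes. Alternatives were 2 pseudocounts, 2 filters and 3 scalings.

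The 6 genes and the 15 lists were chosen with earlier results of these data known, so a list is described by its counts and median. By the rule for naming, each list gives up to 4 members past the size rule, otherwise the 2 with the highest mean, and JAK, SOCS and receptor genes may all be named; 1 gene that the rule names is not reported here. Irf9, Usp18, Ifit2, Rtp4, the single blood cell markers and, in the DSS experiment, Il4 fall outside it. In the vector experiment Il10, Il18r1, Gata3, Il24 and Il1rl1 do so too. All of these were chosen after their values were seen.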

Additional observations from a re-analysis of the deposited data

How the results depend on the processing

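Each of the 12 STAT changes kept its side of the size rule under 7 alternatives (84 values). The 2 filters among these cannot move a gene's own change, so only the pseudocounts and scalings could. The sign turned for Stat6 in the DSS experiment alone, at -0.033 with the median change set to 0, -0.019 with equal 75th percentiles and -0.0073 with equal sums without the 20 highest genes. Its share of the pool, lower in DSS Treg by 0.14 percentage points (a difference of -0.14), was higher by 0.32 without the highest gene of each library, where the Sox12 differences of Stat5a and Stat5b were 2.22 and 1.99 points, against 0.63 and 0.79. Genes past the size rule in the DSS experiment numbered 20 higher and 8 lower, 39 and 20 with a pseudocount of 0.1, 6 and 3 with a pseudocount of 5, and 8 and 2 with the stricter filter, a mean of 5 FPKM or more. The vector experiment gave 525 and 207, with 335 lower at a pseudocount of 0.1, 222 and 94 at a pseudocount of 5, and 322 higher with the stricter filter. In Treg 89 distinct listed genes passed the filter. Past the size rule 0 of them were higher and 2 lower with DSS, where 0.190% and 0.0759% of all genes were. The lower ones numbered 5 with a pseudocount of 0.1, and 0 with a pseudocount of 5 or the stricter filter. In the vector experiment 95 passed, with 8 higher and 12 lower past the size rule, where 4.85% and 1.91% of all genes were. A pseudocount of 5 gave 6 higher and 7 lower. Of 210 list medians 191 moved by less than 0.1 and kept their sign, 8 moved by more and 11 turned. In Treg these were JAK genes (-0.020 with the median set to 0, -0.0065 with equal 75th percentiles), STAT4 targets (-0.015 with the median set to 0) and cytokine ligands (-0.050, -0.033 and -0.022 with the 3 scalings). In CD4 T cells they were PIAS genes (0.038 with equal sums), phosphatases and adaptors (-0.024 with equal 75th percentiles), STAT3 targets (0.0031 with no filter) and cytokine ligands (-0.0010 with no filter, -0.41 with the stricter filter). The cause was not tested. No paired analysis was possible because each group has 1 library. Depth limits Stat2 most of the 6 in the vector table and is unknown for Treg.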
